A study of Mus musculus with 4 samples.

Results

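The cells described here are T lineage cells with little or no RNA of Nkg7, a cytotoxic granule gene, found among sorted thymic myeloid cells. They were selected by transcript counts alone, in 3 single-cell RNA libraries. A barcode (1 droplet, taken as 1 cell) was a member with at least 4 unique molecular identifiers (UMIs, counted RNA molecules) of the CD3 chain genes Cd3e, Cd3d and Cd3g together, at least 2 UMIs of the T cell receptor β constant genes Trbc1 and Trbc2, and at most 1 UMI of Nkg7. It also had at most 1 UMI of the B cell gene Cd79a, at most 2 of the plasmacytoid dendritic cell gene Siglech, 0 of the dendritic cell gene Xcr1 and under 30 of the macrophage genes C1qa, C1qb and C1qc. The rule found 1000 cells among 23549 in these libraries, and 29042 cells passed the quality limits in all 4 libraries of the series.

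The libraries came from thymus digested with enzymes, enriched on a density gradient and sorted for a fluorescent reporter. MAFIA mice (genotype Csf1r-EGFP-NGFR/FKBP1A/TNFRSF6, C57BL/6, 5 weeks) carry EGFP and an inducible death receptor under the promoter of Csf1r, the receptor of the macrophage growth factor CSF1. Cd11cYFP mice (genotype Itgax-Venus, C57BL/6, 9 weeks) express Venus, a YFP variant, from the Itgax promoter (Itgax encodes the integrin CD11c). The methods and labels name no agent given to either line, and the methods name 1 female MAFIA mouse and 2 male Cd11cYFP mice. There are 2 MAFIA libraries, and whether they share a mouse is not stated. Both sorts were aimed at myeloid cells, so the T cells here are those that came through a myeloid sort, not a sample of thymocytes at large. MAFIA replicate 1 was much shallower and is given apart. Values for 3 libraries are always in the order MAFIA replicate 2, Cd11cYFP replicate 1 and Cd11cYFP replicate 2.

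T cells develop in the thymus from progenitors that carry neither CD4 nor CD8 (double negative), through cells that carry both (double positive), to cells that keep one of them (single positive). The recombinase made of RAG1 and RAG2 cuts and joins the receptor gene segments, first for the β chain, which pairs with the surrogate chain encoded by Ptcra, and later for the α chain. Cells whose receptor binds self peptides on MHC molecules weakly enough are positively selected, switch the recombinase off and mature, while others die and are taken up by macrophages.

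The 4 libraries hold 5500 to 9737 barcodes and 26876378 to 185882793 UMIs, with a median of 3980.5 UMIs per barcode in MAFIA replicate 1 and 15759 to 17493 in the others. Between 9 and 23 barcode sequences were shared by any pair of libraries, and 0 of them belonged to T cells in both.

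T cells made up 3.99% of cells in MAFIA replicate 2 (248 cells, exact Clopper-Pearson 95% interval 3.52 to 4.5%), 5.56% in Cd11cYFP replicate 1 (425 cells, 5.06 to 6.10%) and 3.38% in Cd11cYFP replicate 2 (327 cells, 3.03 to 3.76%). The mean was 4.31 ± 1.13% (SD, n = 3 libraries). The interval of Cd11cYFP replicate 1 lay above the other two, and that of MAFIA replicate 2 overlapped with Cd11cYFP replicate 2. In MAFIA replicate 1 the same rule found 14 of 5493 cells (0.255%, 0.139 to 0.427%), at a median of 4724 UMIs. All intervals cover counting error only.

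The defining markers were present. Bcl11b, the transcription factor that commits progenitors to the T lineage and that the rule did not use, had a UMI in 84.7%, 89.9% and 85.6% of the T cells. Lef1, a partner of β-catenin in thymocytes and likewise outside the rule, had one in 83.1%, 80.7% and 80.4%. The chosen values themselves were far from the limits in most cells: the CD3 sum had a median of 22.5, 25 and 22 UMIs and the Trbc sum 34, 35 and 32. At the edges, 12 cells had a CD3 sum of 4 and 9 otherwise fitting cells had 3, while 60 cells had 1 Nkg7 UMI and 38 otherwise fitting cells had 2. The limit on Nkg7 alone removed 304 cells and the limit on the CD3 sum alone 456.

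Among the 15 genes with the highest ratio of T cells over all other cells of the same library, ranked by the lowest of the 3 libraries, were Itm2a, Lef1, Cd3d, Trac, Izumo1r, Cd28, Cd3e, Satb1, Nsg2, Rag1, Cd40lg, Sh2d1a, Cd6 and Cd3g. They are given as a description, since the cells were chosen by their RNA. Itm2a, a membrane protein gene induced during positive selection, stood at 559.6, 511 and 291 CPM (the gene's share of all UMIs summed per library) in T cells, against 12.3, 6.76 and 7.21 CPM in the other cells. Trac, the α chain constant gene on chromosome 14 (54457978 to 54461663, GRCm39), had 315, 393 and 282 CPM in T cells and 9.69, 13.2 and 8.71 CPM in the others. Satb1, a chromatin organiser of thymocytes, had 914, 979.7 and 748 CPM in T cells and 40.6, 29.6 and 27.5 CPM in the others. The T cells were above the rest in every library for each of these 3 genes. The rest includes 304 T cells with Nkg7 that met every other limit. A list of 22 pan T cell genes summed to 8944, 9960 and 8866 CPM in them, against 8001, 10997 and 8292 CPM here. For 28 genes of recombination and the stage before positive selection, the sums were 3673, 1970 and 2393 CPM, against 2895, 3680 and 3523 CPM. High pan T cell RNA was thus shared with the T cells with Nkg7.

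Trbc1 and Trbc2, adjacent on chromosome 6 (41515152 to 41516815 and 41523664 to 41525286), encode nearly identical constant regions, so that reads may be split between them with some error. Both had UMIs in 73.4%, 69.4% and 71.6% of T cells. Trbc2 without Trbc1 was seen in 65, 130 and 91 cells, and Trbc1 without Trbc2 in 1, 0 and 2 cells. Trbc1 gave 36.5%, 36.9% and 34.6% of all Trbc UMIs, so its share varied little between libraries.

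Rag1, the catalytic recombinase subunit (chromosome 2, 101468603 to 101479877), had at least 1 UMI in 14.9% (10.7 to 20.0%), 20.0% (16.3 to 24.1%) and 28.4% (23.6 to 33.7%) of T cells. In B cells of the same libraries, taken for comparison, the shares were 1.95%, 0.653% and 0.436%. The median was 12484.5, 8589 and 12832 UMIs per T cell and 12500.5, 10568 and 11332 UMIs per B cell. After each cell was thinned at random to 3000 UMIs, with 0 cells left out, Rag1 was found in 8.87%, 12.2% and 17.7% of T cells and in 0.487%, 0.109% and 0.218% of B cells. The order of the 3 libraries was the same at both depths, and the intervals of MAFIA replicate 2 and Cd11cYFP replicate 2 did not overlap before thinning. The order was another one among the 36, 172 and 66 T cells with at most 2 UMIs of H2-Aa and none of Itgax, Lyz2 or Jchain, where the shares were 22.2%, 12.8% and 28.8%. As a level, Rag1 stood at 83.4, 91.0 and 107 CPM in T cells, against 2.98, 2.47 and 3.62 CPM in all other cells.

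Cd8b1, the CD8 β chain gene (chromosome 6, 71299772 to 71315087), had a UMI in 30.2%, 32.0% and 42.2% of T cells and in 5.84%, 2.72% and 2.62% of B cells. Cd4 (chromosome 6, 124841655 to 124874758) had one in 66.5%, 57.2% and 55.0% of T cells and in 6.69%, 2.72% and 2.40% of B cells. Cd4 is also made by myeloid cells, and its level was 103, 119 and 84.8 CPM in T cells and 119, 61.3 and 34.4 CPM in all other cells. Cd8a is a poorer guide here, since 55.8%, 63.0% and 68.3% of Xcr1 dendritic cells carried it as well, against 31.5%, 26.6% and 44.3% of T cells. Thinned to 3000 UMIs, Cd8b1 was found in 16.5%, 18.1% and 28.1% of T cells and Cd4 in 30.6%, 32.5% and 21.4%, so the library highest for Cd8b1 was lowest for Cd4.

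**Figure D1:**
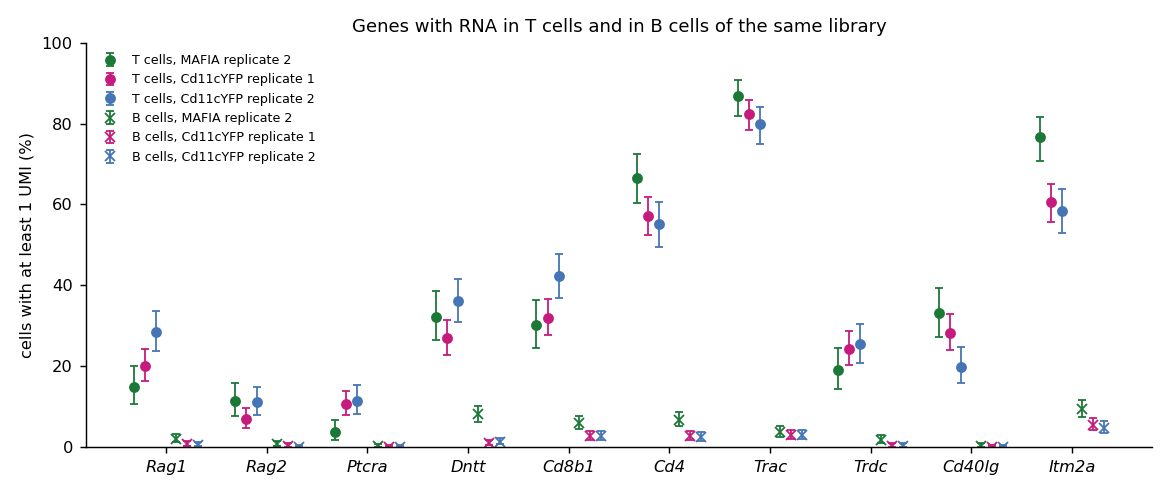
Share of cells with at least 1 UMI of each gene (vertical axis, percent) in T cells (circles) and in B cells (crosses) of the same 3 libraries, coloured by library, with exact 95% intervals that cover counting error only. Rag1 was found in 14.9% to 28.4% of T cells and in at most 1.95% of B cells, and Cd8b1 and Rag1 were highest in Cd11cYFP replicate 2.

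Read together, the 3 genes split the 1000 cells unevenly. At full depth the largest class had Cd4 with neither Rag1 nor Cd8b1 (375 cells, or 44.8%, 38.8% and 30.3% by library). Cells with Rag1, Cd4 and Cd8b1 together, the pattern of double positive thymocytes, numbered 122 (8.87%, 8.94% and 19.0%), and cells with Cd4 and Cd8b1 but no Rag1 UMI numbered 85. Cd8b1 alone was seen in 92 cells, and Rag1 with Cd8b1 but no Cd4 in 50. Rag1 with Cd4 alone was seen in only 6 cells, and Rag1 with neither coreceptor in 37. Another 233 cells had none of the 3 genes, which at this depth does not show that they lacked the RNA. Among Rag1+ cells, both coreceptors were found in 59.5%, 44.7% and 66.7%, and among Rag1 0 cells in 14.7%, 10.3% and 8.12%, so the shares did not overlap between the classes. The order of the classes changed with depth. After thinning to 3000 UMIs, 529 cells had none of the 3 genes, 222 had Cd4 alone, 55 had Rag1 with Cd8b1 and 38 had all 3 genes.

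Other receptor and lineage genes filled in the picture. Trac was found in 86.7%, 82.4% and 79.8% of T cells. Trdc, the δ chain constant gene, lies inside the α chain locus and is also transcribed by early thymocytes, and it had a UMI in 19.0%, 24.2% and 25.4% of T cells against 1.70%, 0.326% and 0.327% of B cells. Dntt, the enzyme that adds bases at receptor joints, was found in 32.3%, 26.8% and 36.1%, and Ccr9, a chemokine receptor of thymocytes, in 74.2%, 59.3% and 57.2%. Foxp3, the factor that defines regulatory T cells, was seen in only 1.21%, 2.35% and 3.06% of the cells. Mki67, a gene of dividing cells, was found in 33.5%, 25.9% and 38.8%.

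The T cells were not uniform in MHC class II RNA, which mouse T cells do not normally make and dendritic cells, B cells and macrophages do. The UMIs of H2-Aa, H2-Ab1, H2-Eb1 and Cd74 together formed 2 groups per library, and 37.1%, 14.4% and 26.6% of T cells had more than 100. This limit was set after the values were seen, so the classes are a range and are described with no test. The share above 100 was 1.71%, 4.13% and 7.58% in T cells with Nkg7 (304 cells that met every other limit), 99% or more in B cells, and 78.7%, 83.6% and 87.6% in all other cells.

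**Figure D2:**
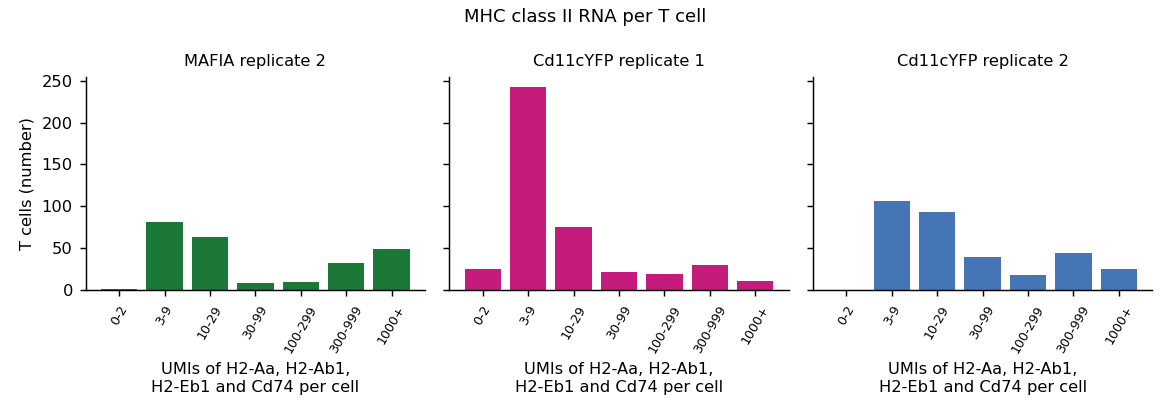
Number of T cells (vertical axis) by the UMIs of H2-Aa, H2-Ab1, H2-Eb1 and Cd74 summed per cell (horizontal axis, unequal bins), 1 panel per library. Most cells lay below 30 UMIs and a second group lay above 100, in 37.1%, 14.4% and 26.6% of the cells.

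The MHC class II-rich cells carried both programmes at once. Their median was 25096, 20284 and 21741 UMIs, against 8618.5, 8051.5 and 9897 in the other T cells. Their CD3 sum had a median of 17, 14 and 12 UMIs, against 25, 27 and 25. Fscn1, an actin bundling gene of migratory dendritic cells, was found in 87.0%, 67.2% and 74.7% of the rich cells and in 16.0%, 16.2% and 24.2% of the others. Itgax was found in 48.9%, 47.5% and 51.7%, against 5.13%, 3.30% and 5.42%. A score for simulated doublets marked 7.61%, 47.5% and 18.4% of the rich cells, against 2.56%, 3.02% and 0.833% of the others. The rich cells were thus higher in depth, in dendritic cell RNA and in doublet score in every library, and lower in CD3 RNA. The part of doublets in this was not tested.

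Rag1 and Cd4 were found on both sides of that limit. Rag1 was found in 15.2%, 21.3% and 23.0% of MHC class II-rich T cells, against 14.7%, 19.8% and 30.4% of the others. Cd4 was found in 67.4%, 45.9% and 51.7%, against 66.0%, 59.1% and 56.3%, although the rich cells were deeper. As markers of other cells, the dendritic cell list of 20 genes summed to 62799, 41317 and 49626 CPM in the rich cells. In the others the list summed to 2399, 2392 and 4435 CPM, and Xcr1, held at 0 by the rule, was its only gene at 0. The list includes H2-Aa, H2-Ab1, H2-Eb1 and Cd74, the genes whose sum defined the rich cells. Part of the difference in the list sum was thus set by the split. Fscn1 and Itgax, given above, are genes of the list outside the split. The macrophage and monocyte list of 17 genes summed to 3736, 2371 and 1770 CPM in the rich cells and to 1200, 612 and 589.8 CPM in the others. Each comparison below is therefore also given for the cells with at most 100 MHC class II UMIs, an alternative chosen after the data were seen.

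The first comparison asked how T cells with Rag1 RNA differed from those without. UMIs were summed per library and class, which gave 3 pairs of sums, and edgeR's quasi-likelihood test with the library as a term was run on all genes, with Rag1 itself left out. In such sums, fewer cells with an RNA and less RNA per cell cannot be told apart. Rag1+ cells had a median of 15910, 14405 and 12906 UMIs, against 12081, 8166 and 12787 in Rag1 0 cells. MHC class II-rich cells made up 37.8%, 15.3% and 21.5% of Rag1+ cells and 37.0%, 14.1% and 28.6% of Rag1 0 cells. At a Benjamini-Hochberg adjusted p under 0.05, 878 of 10580 genes were higher (8.3%) and 769 were lower (7.27%) in Rag1+ cells, 15.6% in either direction. With the MHC class II-rich cells left out, 996 of 8933 were higher (11.1%) and 1191 lower (13.3%), and 1443 of the 1647 calls were shared, with 0 in the opposite direction.

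Genes of receptor recombination and of the stage before positive selection were higher in Rag1+ cells. Of 27 tested, 19 rose and 2 fell, with a median log2 fold change of 2.03, against -0.01 over all genes tested. Rag2, the recombinase partner and the neighbour of Rag1 on chromosome 2 (101455063 to 101462874), had 72.8, 42.8 and 55.7 normalized CPM in Rag1+ cells, against 2.85, 0.269 and 0 in Rag1 0 cells (log2 fold change 5.84 ± 0.44 SE, adjusted p = 8.78e-06). The groups did not overlap, and the Rag1 0 cells had 10 Rag2 counts in all. Ptcra, the surrogate α chain, had 37.2, 59.98 and 48.2 normalized CPM in Rag1+ cells and 0, 2.42 and 4.46 in Rag1 0 cells (4.37 ± 0.42, adjusted p = 3.72e-05). Dntt rose by 3.34 ± 0.14 on the log2 scale, and the DNA end-joining genes Xrcc6 and Lig4 rose by 2.34 ± 0.16 and 2.12 ± 0.23. Chst2 and Glipr1 were the members that fell.

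Cd8b1 had 559, 559.6 and 648 normalized CPM in Rag1+ cells and 43.4, 47.1 and 53.2 in Rag1 0 cells (3.62 ± 0.14, adjusted p = 1.09e-07), and Cd8a rose by 2.96 ± 0.16. Cd4 was not called (-0.05 ± 0.23, adjusted p = 0.924). Endou, an endoribonuclease gene, had 186, 354 and 329 normalized CPM in Rag1+ cells and 13.3, 25.3 and 22.9 in Rag1 0 cells. P2rx1, an ATP-gated channel gene, had 53 counts in Rag1+ cells and 0 in Rag1 0 cells, so it was at least 52.4-fold higher (floor of 3 counts over the group). This bound and later ones of its kind take UMIs and not cells as the unit. They can be too tight where few cells hold the RNA. Among the other largest increases were Syt13 (3.97 ± 0.37), Aqp11 (3.58 ± 0.19), Fbln2 (3.53 ± 0.54), Chrna9 (3.47 ± 0.27) and Dgkeos (4.00 ± 0.27), an RNA on the opposite strand of Dgke whose reads can be told from Dgke only if strand was used in counting. Each of them was higher in Rag1+ cells in all 3 libraries.

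**Figure D3:**
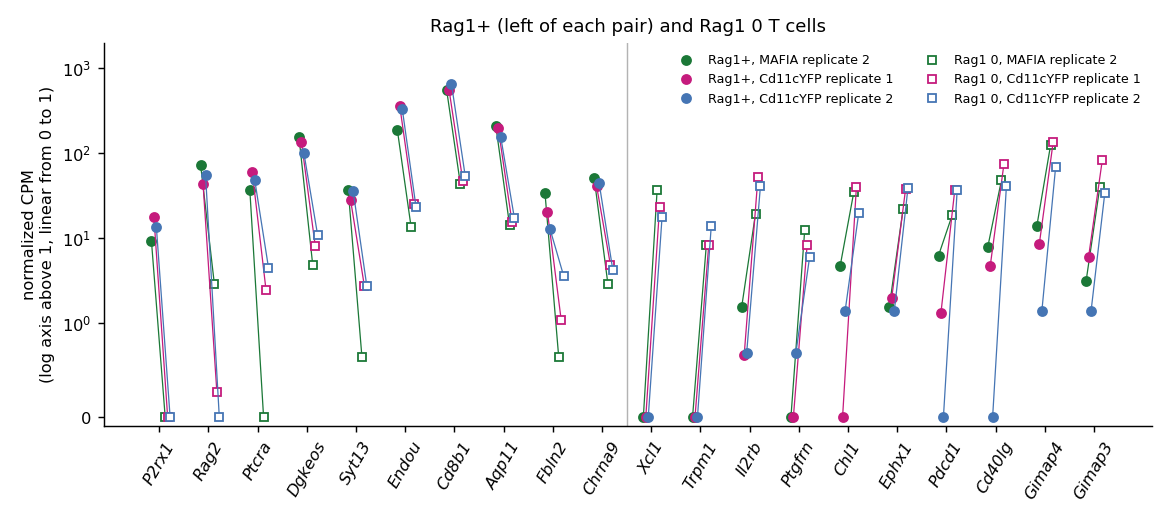
Normalized CPM (vertical axis, log scale above 1 and linear from 0 to 1) of the 10 genes with the largest increase (left of the line) and the 10 with the largest decrease (right) in Rag1+ T cells, filled circles, against Rag1 0 T cells, open squares, with lines joining the sums of 1 library. Rag2 had 42.8 to 72.8 in Rag1+ cells and 0 to 2.85 in Rag1 0 cells, and Xcl1 had 0 in all 3 Rag1+ sums.

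Rag1+ cells were also richer in cell cycle RNA. All 20 mitosis genes rose (median log2 fold change 2.02), as did 18 of 20 replication genes (median 1.04), with 0 falling in either list. Cenpf, a kinetochore protein gene, had 299, 347 and 350.4 normalized CPM in Rag1+ cells and 68.7, 33.9 and 74.1 in Rag1 0 cells (2.56 ± 0.22, adjusted p = 1.90e-05). Rrm2, the ribonucleotide reductase subunit that supplies DNA bases, had 126, 175 and 176 in Rag1+ cells and 49.1, 44.1 and 41.3 in Rag1 0 cells (1.83 ± 0.18). Neither gene overlapped between the classes.

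Of 13 genes of the early double negative stage, 5 rose and 2 fell. The 5 include Ptcra, which is also on the recombination list. Notch3, a receptor of the Notch pathway that drives T lineage choice, had 21.7, 13.8 and 17.0 normalized CPM in Rag1+ cells and 1.58, 1.08 and 2.08 in Rag1 0 cells (3.41 ± 0.39), and its target Hes1 had 46.5, 218 and 151 against 8.86, 25.6 and 44.3 (2.41 ± 0.25). Notch1 and Il2ra, the interleukin 2 receptor α chain, also rose, and Il7r and Cd44 fell. Neither Notch3 nor Hes1 overlapped between the classes, although the lowest Rag1+ sum of Hes1 lay close to the highest Rag1 0 sum.

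Genes of positive selection were lower in Rag1+ cells, with 14 of 20 falling and 2 rising (median -1.53). Itm2a had 83.7, 38.9 and 27.8 normalized CPM in Rag1+ cells and 683, 710.0 and 419 in Rag1 0 cells (-3.72 ± 0.21, adjusted p = 9.59e-07). Nab2, which restrains the EGR factors, fell by 2.85 ± 0.33 on the log2 scale and Tnfrsf9, the costimulatory receptor 4-1BB, fell by 2.76 ± 0.26. Gfi1 and Slamf6 were the 2 that rose. The survival gene Bcl2 fell by 2.04 ± 0.20, while Bcl2l1, which encodes the survival protein that double positive cells use, rose by 0.67 ± 0.17.

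Genes of single positive maturation fell in 23 of 26 cases and rose in 1 (median -1.31). Gimap4, a GTPase gene of mature T cells, had 13.9, 8.57 and 1.36 normalized CPM in Rag1+ cells and 126, 133 and 67.8 in Rag1 0 cells (-3.98 ± 0.30, adjusted p = 8.11e-06). S1pr1, the receptor that lets mature cells leave the thymus, had 4.65, 1.32 and 1.36 in Rag1+ cells and 12.3, 40.9 and 19.0 in Rag1 0 cells (-3.69 ± 0.48), and Klf2, its transcriptional activator, fell by 1.45 ± 0.20. All 3 Rag1+ sums lay below all 3 Rag1 0 sums for Gimap4 and S1pr1.

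Of 13 genes of the CD4 lineage, 8 fell and 1 rose (median -1.47). The 8 include Ctsw, which is also on the CD8 lineage list, since the lists overlap. Cd40lg, the helper ligand of CD40, had 7.75, 4.61 and 0 normalized CPM in Rag1+ cells and 48.1, 74.3 and 40.4 in Rag1 0 cells (-4.04 ± 0.42). Of 17 genes of regulatory T cells, 13 fell and 1 rose, and the CD8 lineage list was divided, with Cd8b1 and Cd8a higher and Xcl1, Ctsw and Cd7 lower of 11 tested. Xcl1, the ligand of XCR1, had 0 counts in Rag1+ cells and 261 in Rag1 0 cells, so it was at least 29.3-fold lower in UMIs. Il2rb, the interleukin 2 receptor β chain, had 3 counts in Rag1+ cells and 393 in Rag1 0 cells (ratio 0.0226, counting interval 0.00465 to 0.0667). Pdcd1, the inhibitory receptor PD-1, fell by 4.22 ± 0.57 and Icos, a costimulatory receptor, by 3.5 ± 0.28.

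The receptor genes moved in different directions. Trbc2 had 2826, 3588 and 3313 normalized CPM in Rag1+ cells and 1475, 2109 and 1625 in Rag1 0 cells (0.91 ± 0.09, adjusted p = 3.72e-05). Trac had 97.6, 111 and 98.5 in Rag1+ cells and 374, 512 and 374 in Rag1 0 cells (-2.03 ± 0.14, adjusted p = 5.55e-06). Cd3e was not called (0.05 ± 0.14, adjusted p = 0.864). Trbc2 and Cd3e are genes of the rule, which the cells of both classes met. The classes did not overlap for Trbc2 or Trac, with the β chain gene higher and the α chain gene lower where Rag1 was present. Trdc rose by 1.14 ± 0.23 and the γ chain gene Trgc2 by 1.33 ± 0.29, and of 8 γδ T cell genes 4 rose and 2 fell. Over all 22 pan T cell genes, 7 rose and 8 fell, with Cd2 (-2.72 ± 0.17) and Cd5 (-2.51 ± 0.24) falling most and Thy1, Bcl11b and Tcf7 among those that rose. Of 18 receptor signalling genes, 4 rose, led by Themis (1.66 ± 0.15), and 7 fell, led by Fyn (-1.41 ± 0.19).

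Markers of other cells moved with this comparison. Of 18 dendritic cell genes tested, 0 rose and 8 fell in Rag1+ cells, led by Ccl22, Cst3 and Fscn1, and the list of 20 summed to 26642, 9036 and 15466 CPM in Rag1+ cells against 40674, 12951 and 24958 CPM in Rag1 0 cells. Of 13 dissociation stress genes, 0 rose and 8 fell, and of 14 interferon response genes, 0 rose and 8 fell. Their part in the other differences was not tested. Among cells with at most 100 MHC class II UMIs, 19 of 26 recombination genes and 20 of 20 mitosis genes still rose, and 25 of 26 maturation genes and 16 of 19 positive selection genes fell. Without Cd11cYFP replicate 2, 442 genes were higher and 373 lower.

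**Figure D4:**
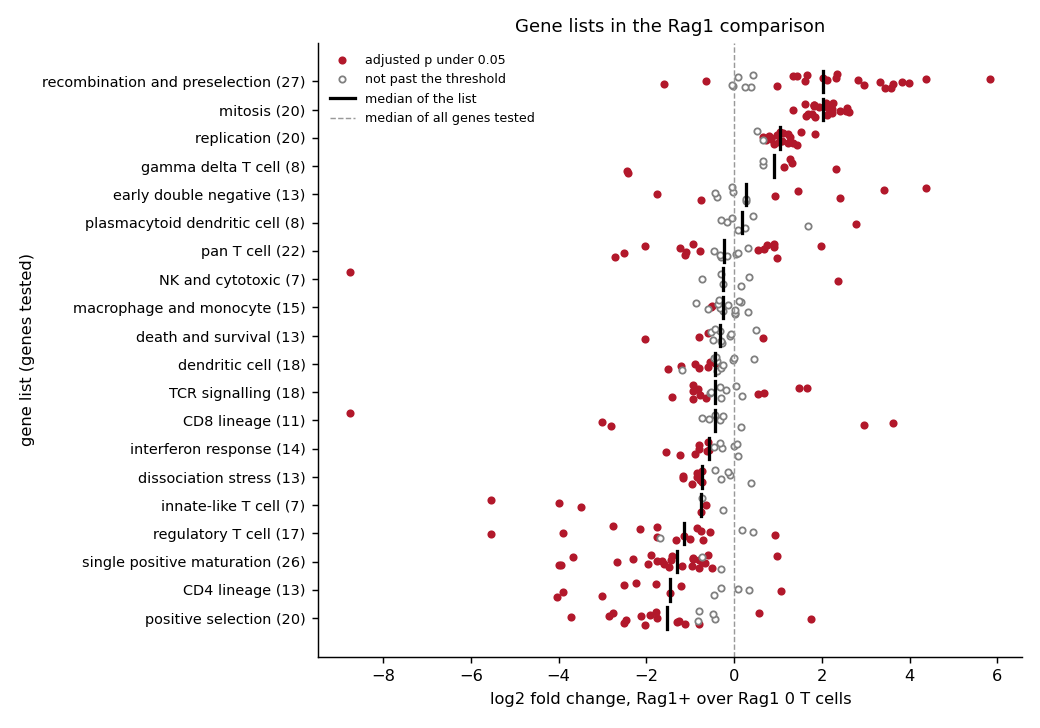
Log2 fold change of each gene (horizontal axis, Rag1+ over Rag1 0 T cells) by gene list (vertical axis, number of genes tested in brackets), red where the adjusted p was under 0.05, with the list median as a black bar and the median of all genes tested as a dashed line. The recombination and mitosis lists had medians of 2.03 and 2.02, and the positive selection list had -1.53.

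The second comparison set Rag1 0 cells with Cd8b1 and no Cd4 (17, 37 and 38 cells, here CD8 T cells) against Rag1 0 cells with Cd4 and neither Cd8a nor Cd8b1 (93, 156 and 84 cells, here CD4 T cells). The names give the gate only, since a cell with 0 UMIs of a gene may still hold its RNA. Some genes of the earlier stage were higher in the CD8 class, as given below. Whether that class holds only CD8 single positive cells was not tested. Cells were few, and CD8 T cells were deeper, with a median of 13428, 10018 and 14000.5 UMIs against 9103, 7876 and 9420.5. MHC class II-rich cells made up 47.1%, 21.6% and 26.3% of CD8 T cells and 23.7%, 7.05% and 17.9% of CD4 T cells. In edgeR, 37 of 7863 genes were higher (0.471%) and 42 were lower (0.534%) in CD8 T cells, 1% in either direction, with the genes of the gate left out.

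Genes of the CD4 lineage fell in 4 of 13 cases and rose in 1 (median -1.10, against a median of -0.003 over all genes tested). Zbtb7b, which encodes the factor ThPOK that fixes the CD4 fate, had 17.5, 16.5 and 9.93 normalized CPM in CD8 T cells and 63.2, 65.0 and 54.3 in CD4 T cells (-2.09 ± 0.29, adjusted p = 0.0143). Gata3, which acts upstream of it, had 35.1, 47.5 and 59.6 in CD8 T cells and 112, 142 and 98.4 in CD4 T cells (-1.26 ± 0.23, adjusted p = 0.0348). Neither gene overlapped between the classes. Runx3, the factor of the CD8 fate, was not called (0.58 ± 0.20, adjusted p = 0.272), and 0 of 9 CD8 lineage genes passed in either direction.

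Some RNA of the earlier stage was higher in CD8 T cells, where 4 of 18 recombination genes rose and 1 fell (median 0.42). Dntt had 73.7, 163 and 149 normalized CPM in CD8 T cells and 24.3, 4.06 and 13.1 in CD4 T cells (3.31 ± 0.47, adjusted p = 0.0143), and Arpp21, an RNA-binding protein gene of thymocytes, rose by 2.86 ± 0.52. Ly6d, a surface protein of lymphoid progenitors, had 73.7, 192 and 283 in CD8 T cells and 25.1, 21.0 and 37.5 in CD4 T cells (2.68 ± 0.27). Gzma, a granzyme gene, had 21.1, 132 and 101 against 4.05, 2.03 and 20.6 (3.36 ± 0.53). All 4 genes were higher in CD8 T cells in each library. Itm2a fell by 1.97 ± 0.17, Izumo1r, the folate receptor 4 gene, by 2.69 ± 0.46, and the microRNA processing gene Drosha by 2.46 ± 0.26. Of 26 maturation genes, 5 fell and 0 rose.

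Some dendritic cell RNA was higher in CD8 T cells. Of 18 dendritic cell genes 16 were not called, and log2 fold changes ran from -0.74 to 1.32 (median 0.31). Only the CD4 gate excluded cells with Cd8a, a gene that Xcr1 dendritic cells often carried. The part of this unequal gate in the difference was not tested. Ccl22 had 1670.0, 473 and 647 normalized CPM in CD8 T cells and 791, 171 and 239.8 in CD4 T cells (1.32 ± 0.13), and Fscn1 rose by 0.87 ± 0.17, the only 2 of 18 dendritic cell genes called. The list of 20 summed to 34749, 17262 and 22154 CPM in CD8 T cells and 28200, 7923 and 21311 CPM in CD4 T cells, and its part in the other differences was not tested. Among cells with at most 100 MHC class II UMIs, which left only the Cd11cYFP libraries with 10 cells or more per sum, 121 of 6620 genes were higher (1.83%) and 143 lower (2.16%), and 58 of the 79 calls were shared. Cxcl10, an interferon-induced chemokine with a log2 fold change of 1.8 in all cells, had -0.19 there. Without Cd11cYFP replicate 2, 0 genes passed in edgeR in either direction (555 at an unadjusted p under 0.05), and without MAFIA replicate 2, 249 were higher and 240 lower.

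The third comparison used the reporter. In the Cd11cYFP libraries YFP RNA had a UMI in 20.2% and 21.4% of T cells, and in MAFIA replicate 2 in 0 of 248 T cells, which by the floor of 3 counts allows a share of cells with a UMI of up to 1.21%. YFP+ T cells (86 and 70) were deeper than YFP 0 T cells (339 and 257), with a median of 13208.5 and 19556 UMIs against 8077 and 10937. MHC class II-rich cells made up 46.5% and 70.0% of YFP+ T cells, against 6.19% and 14.8% of YFP 0 T cells, in Cd11cYFP replicates 1 and 2. EGFP RNA was seen in 1.21% of T cells of MAFIA replicate 2.

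Myeloid genes were higher and T cell genes lower in YFP+ T cells. In edgeR, 791 of 10702 genes were higher (7.39%) and 293 were lower (2.74%), 10.1% in either direction. Without TMM scaling the counts were 728 and 447, and in DESeq2 252 and 26. Of 19 dendritic cell genes, 13 rose and 0 fell (median 1.36, against -0.02 over all genes tested). Of 14 macrophage and monocyte genes, 10 rose and 0 fell (median 1.16), and 0 of 22 pan T cell genes rose and 18 fell (median -0.59). Il1b, the inflammatory cytokine interleukin 1β, had 344 and 449 normalized CPM in YFP+ T cells and 18.5 and 11.9 in YFP 0 T cells (4.68 ± 0.20, adjusted p = 2.14e-07). Itgax, whose promoter drives the reporter, had 68.1 and 114 in YFP+ T cells and 5.74 and 7.49 in YFP 0 T cells (3.76 ± 0.22). Cd3e had 351 and 219.8 in YFP+ T cells and 509 and 409 in YFP 0 T cells (-0.71 ± 0.11, adjusted p = 0.00156). It is a gene of the rule, which held the CD3 sum at 4 or more in both classes. The pan T cell list also holds the rule genes Cd3d, Cd3g, Trbc1 and Trbc2. Bcl11b and Lef1, outside the rule, were among those that fell.

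Among lists of other cells, 4 of 7 plasmacytoid dendritic cell genes, 3 of 6 NK and cytotoxic genes, 2 of 5 B cell genes and 1 of 5 thymic epithelial genes rose, and 1 NK and cytotoxic gene (Ccl5) fell. Of 13 dissociation stress genes 12 rose (median 0.86), led by Atf3 (2.29 ± 0.16), and 6 of 14 interferon response genes rose. Foxp3 had 0 counts in YFP+ T cells and 69 in YFP 0 T cells, at least 8.35-fold lower by the floor of 3 counts. It was seen in only 2.35% and 3.06% of all T cells of these libraries. The bound counts UMIs, and over so few cells it is weak. Penk, the proenkephalin gene, had 3.74 and 4.55 normalized CPM in YFP+ T cells and 91.0 and 20.5 in YFP 0 T cells (-3.67 ± 0.41, adjusted p = 0.000154). Of 20 replication genes 9 fell, of 20 mitosis genes 6 fell, and 0 of either list rose.

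Few of these calls held without the MHC class II-rich cells. Among T cells with at most 100 MHC class II UMIs, 5 of 9663 genes were higher (0.0517%) and 18 were lower (0.186%) in YFP+ cells, and 15 of the 1084 calls held while 3 turned. The 5 were Hpgd, Akr1c18, Plppr4, Igfbp4 and H2-Aa, and among the 18 were Penk and a group of histone genes (H1f5, H3c6, H2ac20, H1f1, H1f3, H1f4, H4c4 and H2ac4), named after their values were seen. There, 0 of 22 pan T cell genes, 0 of 10 macrophage genes and 1 of 15 dendritic cell genes passed, and the dendritic list had a median of 0.38. The dendritic list includes H2-Aa and the other genes whose sum was limited to 100. Their values here were thus bounded by the choice of cells. With at most 30 UMIs, 0 genes were higher in edgeR (315 of all genes had an unadjusted p under 0.05) and 4 lower. YFP itself was still found in 12.6% and 8.75% of the cells with at most 100.

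**Figure D5:**
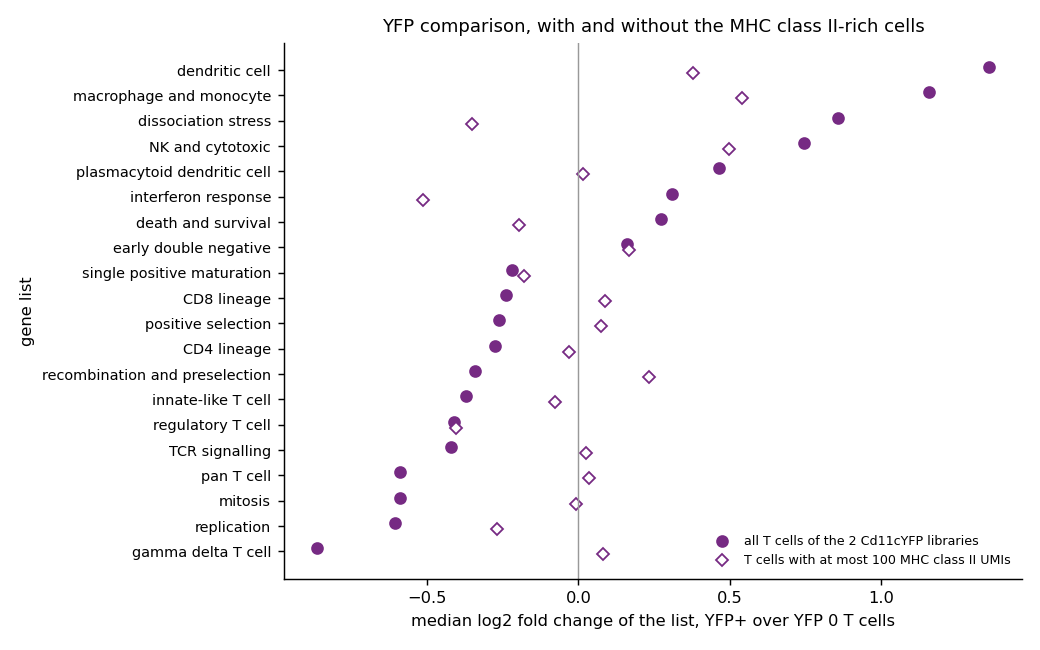
Median log2 fold change of each gene list (horizontal axis, YFP+ over YFP 0 T cells of the 2 Cd11cYFP libraries) in all T cells (filled circles) and in T cells with at most 100 MHC class II UMIs (open diamonds). The dendritic cell list had a median of 1.36 in all T cells and 0.38 in the cells with at most 100, and the pan T cell list had -0.59 and 0.03. The dendritic cell list includes the MHC class II genes of that limit.

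The last comparison set the T cells of MAFIA replicate 2 against those of both Cd11cYFP libraries. Reporter line, sex, age, sort and library all differ together here and cannot be told apart, and the single MAFIA library is assumed to vary like the others. In edgeR, 42 of 12895 genes were higher (0.326%) and 54 were lower (0.419%) in MAFIA T cells, 0.744% in either direction, while 2390 had an unadjusted p under 0.05. Without the likely doublets, a setting added after the data were seen, 0 genes passed in edgeR in either direction (1614 at an unadjusted p under 0.05), so none of the 96 calls held there although all 96 genes kept their direction, and DESeq2 was not run on those cells. As a check of the labels, Xist, the RNA of the inactive X chromosome, had 1522 normalized CPM in MAFIA T cells and 0.187 and 0 in Cd11cYFP T cells. The Y-linked Ddx3y had 0 counts in MAFIA T cells and 799 in Cd11cYFP T cells, and YFP had 0 and 1672, so all 3 went with the labels and methods.

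Genes of γδ T cells were lower in MAFIA T cells, with 4 of 11 falling and 0 rising (median -2.01, against -1.7e-05 over all genes tested). Il17a, the cytokine interleukin 17A, had 0 normalized CPM in MAFIA T cells and 10.1 and 9.13 in Cd11cYFP T cells. This is at least 12.7-fold lower in UMIs. Trdc had 43.3 in MAFIA T cells and 126 and 109 in Cd11cYFP T cells (-1.44 ± 0.18, adjusted p = 0.0398), and the transcription factor gene Maf had 9.22 against 61.7 and 44.6 (-2.53 ± 0.30). Cxcr6, a homing receptor of innate-like T cells, had 1.28 in MAFIA T cells and 55.9 and 30.6 in Cd11cYFP T cells. The MAFIA value was the lowest of the 3 for each of these genes. In the T cells with Nkg7, which the rule leaves out, the γδ list went the other way. It summed to 1639 CPM there in MAFIA replicate 2 and to 643 and 821 CPM in the Cd11cYFP libraries. The lower γδ RNA thus applies to the T cells within the Nkg7 limit.

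Interferon response genes rose in 5 of 14 cases and 0 fell (median 0.94). Ifit1 had 186 normalized CPM in MAFIA T cells and 53.4 and 46.1 in Cd11cYFP T cells (1.90 ± 0.15, adjusted p = 0.0139), and Isg15 had 679.8 against 217 and 246 (1.56 ± 0.13). Of 13 dissociation stress genes, 4 fell and 0 rose (median -1.89), and Fos had 22.0 in MAFIA T cells and 306 and 483 in Cd11cYFP T cells (-4.16 ± 0.35). In all other cells, the stress list summed to 1466 CPM in MAFIA replicate 2 and to 6353 and 9273 CPM in the Cd11cYFP libraries. The interferon list summed to 7311 CPM in those cells of MAFIA replicate 2, against 4703 and 3687 CPM. Both lists thus went the same way outside the T cells, and neither difference was particular to them. Lyz2, the macrophage lysozyme, had 1418 in MAFIA T cells and 125 and 141 in Cd11cYFP T cells, beside a macrophage and monocyte list that summed to 2715 CPM in MAFIA T cells and to 1039 and 1052 CPM in Cd11cYFP T cells. The dendritic cell list summed to 38470 CPM in MAFIA T cells and to 11844 and 22155 CPM in Cd11cYFP T cells, and the part of either list in the differences was not tested. Among cells with at most 100 MHC class II UMIs, 109 of 11630 genes were higher (0.937%) and 175 lower (1.5%), and 10 of 14 interferon genes rose and 8 of 13 stress genes fell.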

How the data were processed

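Single-cell RNA was profiled in 4 libraries, of which 3 gave T cells for the comparisons. The deposited values are UMI counts for each gene in each called barcode, not normalized by the authors. Tools named in the submitters' processing notes are bcl2fastq 2.20, STAR 2.7.9a and Cell Ranger, and the builds are GRCm39 and mm39. The methods describe another build, so the GRCm39 annotation (GENCODE), in which 54749 of 55418 gene entries were found, was used for coordinates. How multimapped reads and strand were treated is not given in the sources used here.

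Cells had 1000 to 7000 genes and at most 10% mitochondrial UMIs. Kept were 5493, 6219, 7646 and 9684 cells (MAFIA replicates 1 and 2, Cd11cYFP replicates 1 and 2). The members, the limits and the gene lists were chosen with earlier results of these data known. Doublets were not removed, but scored against simulated pairs of barcodes (0.8% per 1000 barcodes marked). B cells had at least 5 Cd79a UMIs and a CD3 sum of at most 3, and Xcr1 dendritic cells at least 2 Xcr1 UMIs.

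UMIs were summed per library and class, with at least 10 cells per sum, and tested with edgeR 4.0.16 (TMM, filterByExpr, quasi-likelihood F test, library as a term, limma 3.58.1) on R 4.3.3 with data.table (version 1.17.8). P-values were adjusted by the Benjamini-Hochberg method over all genes tested, with a threshold of 0.05. The MAFIA comparison had no library term. In the comparisons with a library term, p-values measure how the difference between classes varied from library to library. In the MAFIA comparison they rest on the spread between the 2 Cd11cYFP libraries. Fold changes are given with standard errors, and CPM called normalized use TMM factors. The residual degrees of freedom were 2 for the first 2 comparisons and 1 for the others. Python 3.11.15, numpy 2.4.6, scipy 1.17.1, pandas 2.3.3 and matplotlib 3.10.9 gave the other values.

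Genes named per comparison are the 10 largest changes in each direction that passed and had 50 counts or more and 1 sign across libraries, without predicted (Gm, Rik) and gating genes, and up to 3 per list. Genes outside this rule were chosen after their values were seen. For levels, genes are named from the 15 with the highest lowest-library ratio. Some genes are not reported here.

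On simulated counts, 67%, 54%, 61% and 36% of 100 genes changed 2-fold and 92%, 90%, 87% and 80% of 100 changed 4-fold were recovered in the 4 comparisons as ordered, run on 10581, 7866, 10703 and 12895 genes. The simulation gave every gene the same dispersion and had no differences between libraries. Recovery in the real data may therefore differ from these shares. Alternatives were DESeq2 1.42.0, a fit with each library left out, without TMM, without the library term or without the low-count filter, stricter or other gates, thinning to 3000 or 5000 UMIs, likely doublets removed, a mitochondrial limit of 5% and, added after the data were seen, at most 100 or 30 MHC class II UMIs. For the YFP and MAFIA comparisons and the shares of cells, some of these settings were also added after the data were seen. Replicate numbers were not used to pair libraries, and the library term sets each sum against the other sum of the same library.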

Additional observations from a re-analysis of the deposited data

Results flagged for a closer look

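MAFIA replicate 1, which no comparison uses, held 14 T cells by the same rule, a signal outside the libraries compared. Their share of 0.255% of 5493 cells was below the lowest of the other libraries (3.38%), at a median of 4724 UMIs per T cell.

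In the Rag1 comparison, 3 called genes moved up in MAFIA replicate 2 and down in both Cd11cYFP libraries. The log2 ratio of Rag1+ over Rag1 0 T cells in MAFIA replicate 2 was 0.88 for Maf, 0.42 for Blk and 2.64 for Il18r1. Maf had 15.5 normalized CPM in Rag1+ and 8.23 in Rag1 0 cells of MAFIA replicate 2, against 15.2 and 82.6 in Cd11cYFP replicate 1. Blk and Il18r1 had 2.22 and 0.633 normalized CPM in Rag1 0 cells of that library, against 26.6 and 58.1 in Cd11cYFP replicate 1. In MAFIA replicate 2 the Rag1+ sum held only 37 cells and 621097 UMIs. At such low levels the 3 ratios in that library rest on few UMIs and are uncertain. The difference between the lines was not tested.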

How the results depend on the processing

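No paired analysis was possible because, for pairing of the lines by replicate number, replicate 1 of the MAFIA line gave too few T cells and fewer than 2 numbers are shared. The Rag1, CD8 and YFP comparisons are within libraries and have the library as a term.

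In the Rag1 comparison (878 higher, 769 lower), DESeq2 called 467 and 393, no library term 580 and 290, and thinning to 3000 UMIs 366 and 308. Without a low-count filter 1239 were lower and, with at most 100 MHC class II UMIs, 1191. Leaving out 1 library gave 442 to 1076 higher and 373 to 1087 lower, the lowest without Cd11cYFP replicate 2, and 770 of the 1647 calls were shared there.

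In the comparison of CD8 with CD4 T cells (37 and 42), no low-count filter gave 142 and 170, at most 100 MHC class II UMIs 121 and 143, at most 30 UMIs 65 and 68, and removal of likely doublets 6 and 11. Thinning gave 71 higher and DESeq2 24 lower. Without a library term edgeR called 0 higher (555 at an unadjusted p under 0.05) and 2 lower. Leaving out 1 library gave 0 to 249 higher and 0 to 240 lower. Cxcl10 was reversed with at most 100 (-0.19) and at most 30 (-0.011) MHC class II UMIs.

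In the YFP comparison (791 and 293), DESeq2 called 252 and 26, no library term 306 and 43, thinning 281 and 136, at most 100 MHC class II UMIs 5 and 18, and at most 30 UMIs 0 (315 at an unadjusted p under 0.05, in edgeR) and 4. Lower genes numbered 447 without TMM, 584 without a low-count filter and 187 without likely doublets. In the MAFIA comparison (42 and 54), no TMM gave 175 and 193, no low-count filter 630 and 625, at most 100 MHC class II UMIs 109 and 175, at most 30 UMIs 125 and 229, DESeq2 88 lower and a limit on myeloid and B cell RNA 23 higher. There, a CD3 sum of at least 8 gave 271 and 230, and removal of likely doublets 0 and 0 in edgeR (1614 at an unadjusted p under 0.05), both added after the data were seen.

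The share of T cells among all cells (4.31%) was 3.68 to 4.77% with 1 library left out, 2.97% with at most 30 MHC class II UMIs and 1.17% with the limit on myeloid and B cell RNA, added for this share after the data were seen (0.579%, 2.25% and 0.682% by library). The share with Rag1 (21.1%) was 17.5 to 24.2% with 1 library left out and 12.9% after thinning to 3000 UMIs, where fewer molecules are read per cell. Of single genes, 733 values kept their direction and side of the threshold, 114 lost significance and 2 reversed, and of list counts 282 held and 110 moved by over 1.5 times. Not run were the limit on myeloid and B cell RNA for CD8 against CD4 and for YFP (under 10 cells in a sum) and the YFP and MAFIA comparisons with 1 library left out (no residual degrees of freedom, or no MAFIA library). For other moves, the cause was not tested.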

Other observations

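Among the markers of other cells, the 5 fibroblast genes summed to 148 CPM in the T cells of Cd11cYFP replicate 2, against 0.253 and 2.65 CPM in those of MAFIA replicate 2 and Cd11cYFP replicate 1. This RNA was uneven within Cd11cYFP replicate 2, with 210 CPM in Rag1 0 and 0.681 CPM in Rag1+ T cells. It had 242 CPM in cells with at most 100 MHC class II UMIs and 2.05 CPM in the rich cells. In all other cells the sums were 2.71, 205 and 78.0 CPM. The number of T cells that held this RNA is not given here.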
